A study of Mus musculus with 5 samples.

Results

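The genes described here are 8 components of the machinery by which macrophages recognise and engulf dying cells: the receptors Mertk, Axl and Tyro3, the bridging molecules Gas6, Pros1 and Mfge8, and the intracellular partners Elmo1 and Dock2. They were taken as a named list from among the 55487 genes of the deposited table, and all 8 were found in it. The data were 5 RNAseq libraries of viable CD45+/CD11b+/F4/80+ macrophages sorted from digested aortas of male mice (whole aortas per the labels and the sorting methods, the aortic sinus per the RNAseq methods). All mice lacked Apoe, carried floxed Zeb1 alleles, and received 8 weeks of chow followed by 10 weeks of Western diet, up to 18 weeks of age. In the 2 libraries labelled WT (genotype Zeb1 WT/Apoe KO, here called WT) the floxed Zeb1 alleles were left intact, and in the 3 libraries labelled KO (genotype Zeb1 ΔM/Apoe KO, here called ΔM) the mice also carried LysM-Cre, a Cre expressed from the Lyz2 gene and thus active in macrophages, monocytes and neutrophils. Per the methods, cells from 3 mice were pooled within a genotype and condition. The study describes its replicates in general as biologically independent, while its RNAseq methods state that libraries were made in triplicate from mixed cells. No source used here assigns a library to its animals, so it could not be told whether the libraries of a genotype came from separate pools, and the p-values describe the spread between libraries.

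Efferocytosis is the clearance of apoptotic cells. Dying cells expose phosphatidylserine on their surface. GAS6 and protein S, the product of Pros1, bind this lipid and link it to the TAM family of receptor tyrosine kinases (TYRO3, AXL and MERTK), whereas MFG-E8 links it to integrins that contain the αv subunit. ELMO1 and DOCK2 act inside the cell, where they form an exchange factor that activates the GTPase RAC and so drives the actin rearrangement of engulfment. In atherosclerotic plaques, macrophages that clear apoptotic foam cells are known to limit the growth of the necrotic core. The comparison addressed whether the mRNA of these genes differed between macrophages with and without Zeb1 in the plaque-bearing aorta.

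The counts could not check the genotype labels. Zeb1 itself, the targeted gene, was at 0 counts in each WT library and at 22, 0 and 0 counts in ΔM replicates 1, 2 and 3. Apoe, which is deleted in all mice, had between 0 and 86 counts per library. Lyz2, the source of Cre expression, had at least 161607 counts in every library. Total counts ranged from 20118545 to 50649912, and of the 10 macrophage markers between 7 and 10 had more than 3 counts in each library. At 100 counts or more, 3 of the 10 were found in ΔM replicate 1 and 8 or 9 in each other library. Their summed level was 6698 CPM on total counts in that replicate and between 22544 and 33803 CPM in the others. CD11b, a sorting marker encoded by Itgam, had 0 counts in ΔM replicate 1. A limit of 3 counts per library was taken as the least that could be called detected. It corresponded to between 0.0597 and 0.248 CPM (counts relative to library size, with TMM normalisation). These limits cover counting error only, because the cDNA was amplified and reads copied by PCR are not independent molecules.

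Both libraries numbered 1 stood apart from the others in their range of counts. In ΔM replicate 1, 44.8% of the 21936 protein-coding genes had between 4 and 50 counts and 3.42% had 100 or more. In WT replicate 1 these shares were 16.6% and 7.09%. The remaining 3 libraries had from 3.52% to 7.17% of genes in the low range and from 13.3% to 18.6% at 100 counts or more. Olfactory receptor genes, which are not markers of macrophages, showed the same order. Of 1103 such genes, 37.2% had more than 3 counts in ΔM replicate 1, with a median of 11 counts among them. The share was 10.7% in WT replicate 1, with a median of 8 counts, and between 1.09% and 3.08% in the other libraries. Every count of the 8 efferocytosis genes in the libraries numbered 1 lay between 0 and 22.

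Each of the 8 genes had either 50 counts or fewer, or 100 or more, in a given library. Of their 40 values, 19 were 3 counts or fewer, 10 were between 4 and 50, none was between 51 and 99, and 11 were 100 counts or more. All 11 high values came from 3 libraries, 4 of them from WT replicate 2, 4 from ΔM replicate 2 and 3 from ΔM replicate 3. Over all protein-coding genes, 71.6% of values were 3 counts or fewer, 15.3% between 4 and 50, 1.12% between 51 and 99, and 12% were 100 or more. Counts of 100 or more were found in 3 libraries for Elmo1 and Dock2, in 2 for Gas6 and Mfge8, in 1 for Axl, and in none for Mertk, Tyro3 and Pros1.

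**Figure D1:**
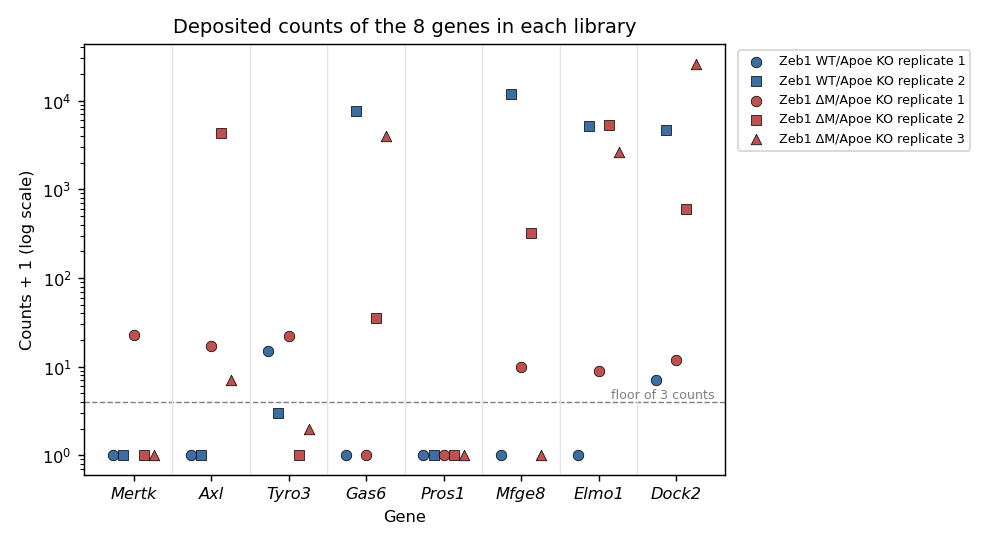
Deposited counts (plus 1, log scale) of each of the 8 genes in each of the 5 libraries, with colour for genotype and symbol for replicate number. The dashed line is the limit of 3 counts, and the circles, which are the libraries numbered 1, never rise above 22 counts.

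**Figure D2:**
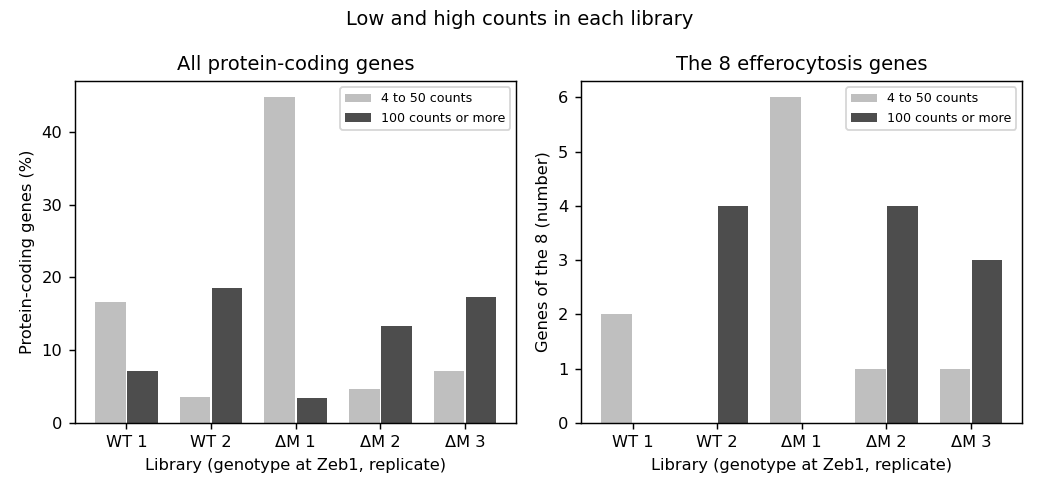
For each library, the share of all 21936 protein-coding genes (left, percent) and the number of the 8 efferocytosis genes (right) with 4 to 50 counts and with 100 counts or more. In ΔM replicate 1, 44.8% of protein-coding genes and 6 of the 8 genes fall in the low range, and none of the 8 reaches 100 counts.

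Of the 8 genes, 6 had enough counts to be tested between genotypes; Mertk and Pros1 did not. None of the 6 was called by edgeR's quasi-likelihood test, in which 0 of 7905 genes (0%) passed an adjusted p of 0.05 and 86 had an unadjusted p below it. The adjusted p was 1 for each of the 6 genes, and none was among those 86. The median log2 fold change of all genes tested, ΔM over WT, was 0.78. Against this median, Axl, Dock2 and Tyro3 lay higher, by 12.38, 0.64 and 0.25 on the log2 scale, and Elmo1, Gas6 and Mfge8 had differences of −1.15, −2.85 and −6.74. Over the 6 alternatives that kept all libraries, each compared with its own median, Axl stayed above and Mfge8 below. Tyro3 lay below the median on total counts alone, without a filter, in limma-voom and with the replicate block, and Dock2 lay below it with the block. Elmo1 lay above it in limma-voom and with the block, and Gas6 lay above it in limma-voom. The standard errors of these fold changes ran from 4.25 for Tyro3 to 8.0 for Axl. Because the libraries are bulk samples, fewer cells that express a gene and less RNA per cell cannot be told apart.

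Among the receptors, Axl was the only one with a count of 100 or more in any library. Axl (ENSMUSG00000002602.16, chr7:25757273-25788705, minus strand, GRCm38) encodes the TAM receptor whose main ligand is GAS6. It had 0 and 0 counts in the WT libraries, and 16, 4330 and 6 counts in ΔM replicates 1, 2 and 3. All 3 ΔM libraries were thus above both WT libraries, and replicate 2 held 99.5% of all Axl counts. Its level was 34.2 ± 58.0 CPM (SD, n = 3) in ΔM macrophages, at least 349.8-fold higher than the mean of the limits of 3 counts in the WT libraries. Without ΔM replicate 2 this bound was 7.36-fold, and it then rested on the 16 counts of ΔM replicate 1, which lie in the range of low counts spread over many genes of that library (median of 11 among its olfactory receptor genes above 3 counts). ΔM replicate 3 alone, with 6 counts, gave 1.22-fold, and 6 was also the median among its own olfactory receptor genes above 3 counts. The log2 fold change was 13.16 (standard error 8.0, unadjusted p = 0.0999, adjusted p = 1, edgeR), a fitted value that depends on how counts of 0 are handled. The exact permutation test, two-sided on log2 CPM, gave p = 0.2, where 0.1 is the smallest that 2 libraries against 3 can reach.

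Axl was the only one of the 8 genes whose libraries did not overlap between genotypes, a pattern that 6.68% of the genes tested showed in the same direction. It passed the filter on low counts only through the ΔM libraries. Among the genes tested, 878 had 3 counts or fewer in both WT libraries, and 201 of these, Axl included, had more than 3 counts in all 3 ΔM libraries. In 63 of those 201, as for Axl, a single library reached 100 counts, whereas 11 reached it in all 3. DESeq2, the test named in the study's methods, called Axl higher in ΔM macrophages (log2 fold change 12.14, adjusted p = 0.0191), beside 6.87% of the 6519 genes it tested that were called in that direction. Without ΔM replicate 2, DESeq2 gave Axl no adjusted p and a log2 fold change of 7.34.

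The library rich in Axl was also the only one rich in Dcn, which encodes decorin, a matrix proteoglycan of fibroblasts. Dcn had 19005 counts in ΔM replicate 2 and at most 1 count in each other library. The remaining fibroblast markers were at or near 0 in that replicate. Col1a1, Col3a1, Lum and Pdgfra had 0 counts there and Col1a2 had 5. The 6 fibroblast markers summed to 531 CPM (scaled on total counts) in this replicate and to between 0 and 2.23 CPM in the others. All 6 smooth muscle markers were at 0 in it. The part of Dcn-expressing cells in the Axl value was not tested.

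Mertk (ENSMUSG00000014361.5, chr2:128698956-128802894, plus strand), the TAM receptor best known for efferocytosis in resident macrophages, was close to absent. It had 0 counts in 4 libraries and 22 counts in ΔM replicate 1, the library in which low counts were spread over the most genes. Mertk mRNA was not detectable in the other 4 libraries at this depth.

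Tyro3 (ENSMUSG00000027298.17, chr2:119797733-119818104, plus strand), the TAM receptor known mainly from the nervous system, stayed at low counts throughout. It had 14 and 2 counts in the WT libraries and 21, 0 and 1 counts in the ΔM libraries. The values above the limit of 3 counts were those of the libraries numbered 1, which come from opposite genotypes. Its level was 0.282 ± 0.317 CPM (SD, n = 2) and 0.584 ± 0.995 CPM (SD, n = 3), respectively. The genotypes overlapped, with a log2 fold change of 1.03 (standard error 4.25, unadjusted p = 0.809, edgeR) that changed sign when counts were scaled by library totals alone.

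The bridging molecules Gas6 and Mfge8 were high in some libraries, and Pros1 in none. Gas6 (ENSMUSG00000031451.6, chr8:13465374-13494490, minus strand) encodes the ligand that binds all TAM receptors. It had 0 and 7729 counts in the WT libraries, and 0, 34 and 3984 counts in the ΔM libraries. Each genotype thus had 1 library with at least 3984 counts and at least 1 with none. The level was 112 ± 159 CPM (SD, n = 2) in WT and 26.7 ± 45.6 CPM (SD, n = 3) in ΔM macrophages. The log2 fold change was −2.07 (standard error 4.86, unadjusted p = 0.670, edgeR), less than the spread between libraries. Without WT replicate 2 it was 12.79.

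Of the 6 endothelial markers, Pecam1, which is also found on leukocytes, and Egfl7 were high in the same libraries as Gas6, and the other 4 were not. Pecam1 had 2487 counts in WT replicate 2 and 2628 in ΔM replicate 3, and at most 21 in the others. Egfl7 had 2025 and 8733 counts in the same libraries, and at most 3 in the others. Cdh5, the defining cadherin of endothelium, had 0 counts in all 5 libraries, and Vwf and Tie1 had at most 37. Kdr had 1455 counts in WT replicate 1, where Gas6 had none, and at most 6 in the others. The 6 markers summed to 131 and 224 CPM on total counts in the libraries high in Gas6, and to between 0.196 and 72.5 CPM in the others. The T cell genes Cd3d and Trac were also high there and at most 7 elsewhere, with 18115 and 7302 counts in WT replicate 2 and 12795 and 4411 in ΔM replicate 3. Lck had the same order of libraries as Gas6, with 90049 counts in WT replicate 2, 31024 in ΔM replicate 3, 964 in ΔM replicate 2 and at most 12 in the libraries numbered 1. Cd3g, Cd3e and Cd2 had another order. Cd2 had 12805 counts in WT replicate 2, 46 in ΔM replicate 2 and 0 in ΔM replicate 3. Cd3g had 13275 counts in ΔM replicate 2, where Gas6 had 34, and 2 in ΔM replicate 3, and Cd3e had 1207 and 189 counts in these libraries. All 6 T cell markers were above 3 counts in WT replicate 2, 4 in each of ΔM replicates 2 and 3, and 2 in each library numbered 1. Their summed levels on total counts were 4307, 433 and 956 CPM in WT replicate 2 and ΔM replicates 2 and 3, and at most 10.3 CPM in the libraries numbered 1. The cells were sorted on CD45, CD11b and F4/80, and the part of endothelial cells or T cells in the Gas6 values was not tested. Exons of Gas6 overlap those of Tmem255b on the opposite strand, which had 0 counts in every library.

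Mfge8 (ENSMUSG00000030605.15, chr7:79133768-79149060, minus strand) encodes the secreted bridge to αv integrins. It had 0 and 11775 counts in the WT libraries, and 9, 321 and 0 counts in the ΔM libraries. WT replicate 2 held 97.3% of its counts, while the other library of that genotype had none. Its level was 171 ± 242 CPM (SD, n = 2) against 2.75 ± 4.14 CPM (SD, n = 3), and the genotypes overlapped. The log2 fold change was −5.95 (standard error 5.49, unadjusted p = 0.278, edgeR; adjusted p = 0.400 in DESeq2), and 9.51 without WT replicate 2. The T cell gene Cd2 was likewise highest in WT replicate 2, with 12805 counts, followed by ΔM replicate 2 with 46. Cd3g and Cd3e also followed this order, with 19179 and 1571 counts in WT replicate 2, then 13275 and 1207 in ΔM replicate 2. Cd3d, Trac and Lck did not, with 12795, 4411 and 31024 counts in ΔM replicate 3, where Mfge8 had 0. The summed T cell level was 4307 CPM on total counts in WT replicate 2. It was lower in ΔM replicate 2 (433 CPM) than in ΔM replicate 3 (956 CPM), unlike Mfge8. The part of T cells in the Mfge8 values was not tested. The αv integrin subunit Itgav, part of the MFG-E8 receptor, had 0 and 29 counts in the WT libraries and 3856, 0 and 2622 in the ΔM libraries, so that no library had 100 counts or more of both Mfge8 and Itgav. Itgb5, a β subunit that pairs with αv, had 0 and 2852 against 0, 5607 and 1 counts, and reached 100 counts in the same 2 libraries as Mfge8. Itgav and Itgb5 were singled out after their values were seen.

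Pros1 (ENSMUSG00000022912.8, chr16:62854307-62929346, plus strand), which encodes protein S, an anticoagulant that also serves as ligand of MERTK and TYRO3, had 0 counts in all 5 libraries. At this depth a level up to the limits of 3 counts per library given above would have been missed.

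Ligand and receptor were not high together in any library. Axl reached 100 counts only in ΔM replicate 2, where Gas6 had 34 counts. Gas6 was high in WT replicate 2 and ΔM replicate 3, where Axl had 0 and 6 counts, Mertk 0 and 0, and Tyro3 2 and 1. No library thus had 100 counts or more of Gas6 and of any TAM receptor. Only ΔM replicate 2 could have shown such a pair, because Axl reached 100 counts in no other library and Mertk and Tyro3 in none.

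**Figure D3:**
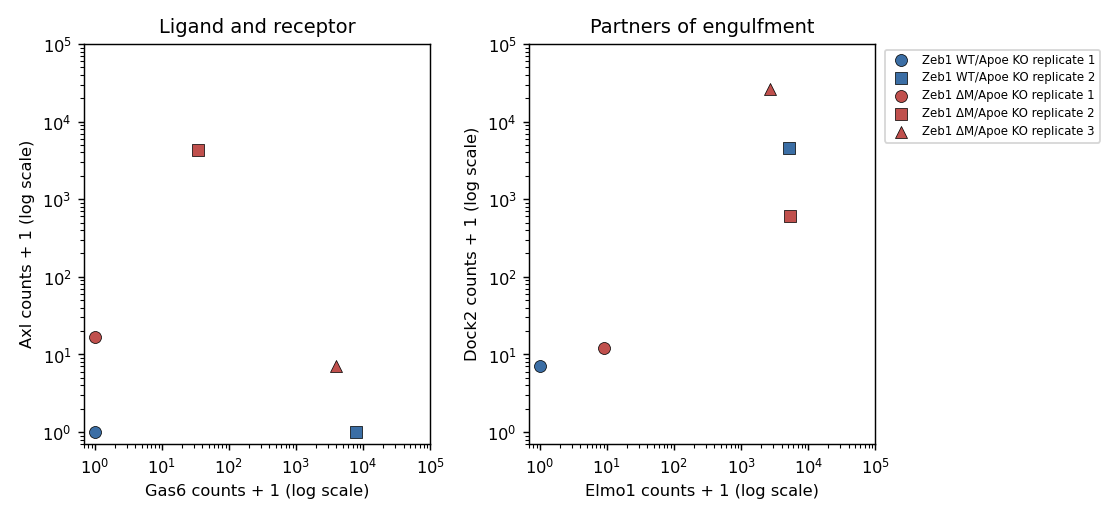
Counts (plus 1, log scales) of Axl against Gas6 (left) and of Dock2 against Elmo1 (right) in each library, with colour for genotype and symbol for replicate number. No library has 100 counts or more of both Gas6 and Axl, whereas 3 libraries of both genotypes have 605 counts or more of both Elmo1 and Dock2.

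Both intracellular partners were high in the 3 libraries not numbered 1, as were many other genes. Of the 7905 genes tested, 1525 (19.3%) had 100 counts or more in these 3 libraries, and 664 (8.4%) had them there and fewer than 100 in both libraries numbered 1, as Elmo1 and Dock2 did. Elmo1 (ENSMUSG00000041112.17, chr13:20090596-20608353, plus strand) encodes the scaffold that binds DOCK proteins. It had 0 and 5237 counts in the WT libraries, and 8, 5275 and 2662 counts in the ΔM libraries. The libraries numbered 1 were low and the other 3 high, whatever their genotype. Its level was 76.0 ± 107 CPM (SD, n = 2) and 59.0 ± 61.6 CPM (SD, n = 3), with a log2 fold change of −0.37 (standard error 4.83, unadjusted p = 0.940, edgeR). The difference in its mean log2 CPM had the opposite sign, 2.48 (two-sided exact permutation test, p = 0.7).

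Dock2 (ENSMUSG00000020143.15, chr11:34226815-34783892, minus strand) encodes the DOCK exchange factor restricted to blood cells. Alone among the 8, it exceeded 3 counts in every library. It had 6 and 4619 counts in the WT libraries, and 11, 605 and 26286 counts in the ΔM libraries. ΔM replicate 3 held 83.4% of its counts. The level was 67.1 ± 94.6 CPM (SD, n = 2) and 179 ± 298 CPM (SD, n = 3), and the genotypes overlapped. Its log2 fold change was 1.42 (standard error 4.58, unadjusted p = 0.757, edgeR), and −3.16 without ΔM replicate 3.

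Elmo1 and Dock2 overlap antisense genes, and the kit does not mark strand, so reads from such pairs cannot be told apart where exons overlap. The antisense gene Gm32036 had 534 and 2438 counts in the WT libraries and 2, 0 and 616 in the ΔM libraries, and the values of Elmo1 are therefore uncertain. The antisense gene 4930403D09Rik had at most 5 counts in any library.

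**Figure D4:**
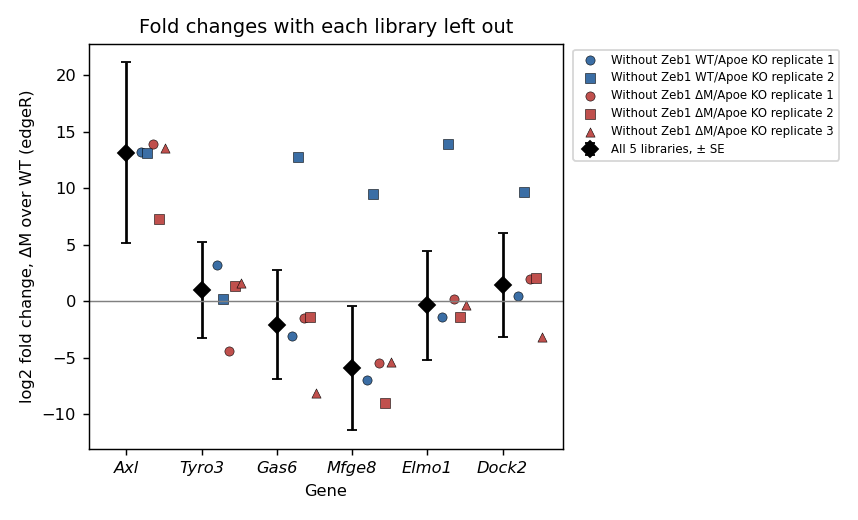
Log2 fold change of each of the 6 genes tested, ΔM over WT, from edgeR with all 5 libraries (diamonds, bars ± standard error) and with each library left out (coloured symbols). Leaving out WT replicate 2 turns the sign for Gas6, Mfge8 and Elmo1, and Axl falls to 7.28 without ΔM replicate 2.

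Per kilobase of annotated exons, the mean level over the 5 libraries was highest for Gas6 (23.9 CPM per kilobase), followed by Mfge8 (14.9), Dock2 (11.8), Elmo1 (5.23), Axl (4.08), Mertk (0.0837), Tyro3 (0.0748) and Pros1 (0). Every neighbouring pair in this order overlapped over the libraries, since each gene but Dock2 had a library at 0 and Dock2 a library at 0.0190 CPM per kilobase. The order changed with single libraries left out. Without WT replicate 2 Dock2 was highest (11.8), followed by Gas6 (7.86), Axl (5.10), Elmo1 (3.52) and Mfge8 (0.439). Without ΔM replicate 2 Axl was at 0.0715, below Mertk and Tyro3, and without ΔM replicate 3 Dock2 was at 3.27, below Elmo1 and Axl. Without ΔM replicate 1 Mertk was at 0, below Tyro3, and without WT replicate 1 the order was as with all 5. In a single library the highest level was that of Gas6 in WT replicate 2, 88.0 CPM per kilobase.

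ZEB1 binds E-boxes of the letters CACCTG, and the upstream sequences of the 8 genes were searched for them on both strands (CACCTG or CAGGTG). The 250 bases before each start in RefSeq (GRCm38.p6) gave 9 windows for the 8 genes, with 2 starts for Elmo1. The letters occurred in 1 of the 9, upstream of the first Elmo1 start, and in 17.2% of all 32851 windows of that length. The Elmo1 site is shown because it is the only such match. It lies at chr13:20090423-20090452 (plus strand, GRCm38.p6), with the E-box in capitals, which begins 72 bases before the start:
Elmo1: cgtgtccgcgcgCAGGTGccgggggcggcg
A match of letters is a description of the sequence, and binding was not measured. Axl, whose libraries did not overlap between genotypes, had no match in its window.

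The wider pathway was described with 4 lists of 20 genes each, all present in the table. Of these 80 genes, 57 were tested and none was called by edgeR or had an unadjusted p below 0.05. The libraries of the genotypes did not overlap for 4 of the 57 (7.02%), against 11.2% of all genes tested. These were Stab1, higher in ΔM macrophages, and Anxa1, Nr1h2 and Socs1, higher in WT macrophages. The median log2 fold changes of the lists were 0.64, 0.51, −0.27 and −0.037 in the order below, beside 0.78 over all genes tested. A positive log2 fold change was found for 8 of 12, 8 of 14, 7 of 16 and 6 of 15 genes tested, and for 4811 of all 7905.

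Among other recognition receptors and opsonins, the complement component C1qb was high in all libraries, with 38760 and 191331 counts in WT and 398502, 177721 and 232428 in ΔM macrophages (log2 fold change 2.0, standard error 1.71, adjusted p = 1, edgeR). Its partner C1qa was high in the 3 libraries not numbered 1, at 48430 counts or more, and had 0 and 5 counts in the libraries numbered 1. C1qc had from 257 to 85438 counts. Stab1, a scavenger receptor that recognises phosphatidylserine, had 105 and 2938 counts against 60772, 17741 and 9080 (log2 fold change 5.39, standard error 3.52, unadjusted p = 0.126, edgeR). Stab1 was thus higher in every ΔM library and reached at least 100 counts in all 5.

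Within the engulfment machinery, the GTPases Cdc42, Rac2 and Rhoa and the ELMO family member Elmo2 had the highest levels. Cdc42 had 20777 and 37600 counts in WT and 0, 50299 and 8790 in ΔM macrophages. Rac2, the RAC of blood cells, had 15 and 36878 against 0, 17086 and 52714 counts, and was thus high in the same 3 libraries as Elmo1 and Dock2. Rhoa followed the same division, with 81 and 107 counts in the libraries numbered 1 and at least 11500 in the others. Elmo2 had 8993 counts in WT replicate 2, 29759 in ΔM replicate 3, and at most 21 elsewhere.

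For phagosome maturation and corpse digestion, Ctsb, a lysosomal protease, had 1836 and 242975 counts against 1187, 79596 and 202396. Ucp2, a mitochondrial carrier known to help phagocytes take up further corpses, had 15850 and 28924 against 17, 52019 and 68729 counts. Rab7, the GTPase of late endosomes, had at most 2 counts in the libraries numbered 1 and at least 26842 in the others. Cybb, the catalytic subunit of the phagocyte NADPH oxidase, had 66 and 12500 against 2663, 35240 and 54948 counts. DESeq2 gave an adjusted p to 37 of the 80 genes of the 4 lists. It called 1 of them, the autophagy gene Atg7, lower in ΔM macrophages (adjusted p = 0.0105), beside 5.25% of its genes called in that direction. Atg7 rested on a single library, with 0 and 13719 counts in WT and 0, 0 and 1 in ΔM macrophages.

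Among regulators and signals, Cd47, the do-not-eat-me signal, had 3462 and 18716 counts against 2, 12876 and 31833. Sirpa, its receptor on macrophages, had 93 and 752 against 15804, 305 and 8596 counts, and the genotypes overlapped (log2 fold change 5.29, standard error 4.73, unadjusted p = 0.263, edgeR). Cd300a, an inhibitory receptor of phosphatidylserine, had 60393 counts in ΔM replicate 3, 6222 in WT replicate 2 and at most 1 elsewhere. The nuclear receptor Nr1h2 had 149 and 2445 against 4, 0 and 0 counts, and the cytokine signalling inhibitor Socs1 had 44 and 1805 against 8, 0 and 1, with unadjusted p of 0.143 and 0.186 in edgeR. Anxa1, an opsonin of the first list, had 20354 and 9103 against 0, 10422 and 7404 counts, so its separation in TMM-normalised CPM was absent from the counts themselves. The neutrophil marker S100a9 had 29483 and 10969 against 0, 4180 and 1041 counts, and was thus, like Anxa1, highest in WT replicate 1 and at 0 in ΔM replicate 1. Unlike Anxa1, S100a8 was also high in ΔM replicate 1, with 33862 and 11811 against 33132, 22405 and 962 counts. Csf3r had 33 and 7309 against 15, 17767 and 4976 counts. Retnlg had 8892 and 355 against 0, 9370 and 0 counts, and both were highest in ΔM replicate 2. The 5 neutrophil markers summed to 3592 and 880 against 1360, 1502 and 138 CPM on total counts, and Ly6g, the defining one, had at most 1 count in any library. The part of neutrophils in the Anxa1 values was not tested. Anxa1, Nr1h2 and Socs1 were named because their libraries did not overlap.

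For each of the 6 genes tested, the gene with the most similar profile was found by the root mean square difference of centred log2 CPM over the 5 libraries, a description over few points that share libraries. For Axl it was Setd3, an actin methyltransferase (difference 0.197), with 0 and 0 counts in WT and 18, 3239 and 5 in ΔM macrophages. Tyro3 was nearest to Nt5e, which encodes CD73 (0.153). For Gas6, Mfge8, Elmo1 and Dock2 the nearest genes were Nudc (0.334), Ndel1 (0.414), Ggh (0.311) and Derl1 (0.600). The most similar pair within the 6 was Gas6 and Dock2, with a difference of 1.75, and 135 of the genes tested were nearer to Gas6 than Dock2 was. Elmo1 and Dock2 differed by 2.21, with 517 genes nearer to Elmo1 than Dock2 was. None of the 6 thus had another of them as its nearest gene.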

How the data were processed

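RNAseq of sorted aortic macrophages was analysed from the expected counts that the authors deposited as whole numbers, 1 column per library, without normalisation or a filter on genes. The authors made libraries with the SMART-Seq v4 ultra-low-input kit, sequenced paired reads of 75 bases, mapped them to GRCm38 with STAR 2.5.3a and quantified genes with RSEM 1.3.0. Groups were taken from the genotype given in the labels. Counts were tested over the whole table with edgeR 4.0.16 in R 4.3.3 (filterByExpr with a minimum count of 10, TMM, quasi-likelihood test, no covariates). The threshold for a call was 0.05 on the p adjusted by Benjamini-Hochberg. The common dispersion was 6.44. Log2 CPM used a prior count of 2. Single genes were also tested by exact permutation of all 10 assignments of libraries to genotypes, two-sided. The scripts were tested on simulated data.

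The alternatives were RLE size factors, total counts alone, no filter, DESeq2 1.42.0, limma-voom (limma 3.58.1) with quality weights, the replicate number as a block, and each library left out. Coordinates and exon lengths are from GENCODE M21 (GRCm38), which held 54349 of the 55487 identifiers with their version. Upstream sequences are from RefSeq, and no protein sequences were used here. The 8 genes, the 4 lists and the markers were chosen with earlier results of these data known. Genes named were the 8, the 4 of each list with the highest mean CPM, the gene nearest to each of the 6 tested, Zeb1, Lyz2 and Apoe, and 1 gene of this rule is not reported here. Markers of other cells, Itgam, Itgav, Itgb5, Atg7, Anxa1, Nr1h2, Socs1 and the genes that overlap Gas6, Elmo1 and Dock2 were named after their values were seen.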

Additional observations from a re-analysis of the deposited data

How the results depend on the processing

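The call of Axl depended on the test. edgeR called none of the 8 genes under RLE size factors, total counts alone, no filter, the replicate block or with any library left out, and limma-voom called none. DESeq2 called 1, Axl, and again 1, Axl, without ΔM replicate 1, but 0 without ΔM replicate 2 (both chosen after seeing the data). With all libraries it gave an adjusted p only to Axl, Mfge8 and Elmo1 of the 8, and without ΔM replicate 2 it gave none to Axl. The adjusted p of Axl ran from 0.0100 to 1 over the alternatives that gave one. Over all genes DESeq2 called 790, and 2328 or 1151 without replicate 1 or 2 of ΔM; limma-voom called 234. edgeR called 0, and from 0 to 1 with a library left out, the 1 arising without ΔM replicate 1. Of the 80 list genes DESeq2 gave an adjusted p to 37 and called 1, and it called 7 or 3 without those replicates. Axl was the 1 gene without overlap under total counts too.

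Of 78 alternative fold changes of the 6 genes tested, 18 changed sign, none of them for Axl, whose log2 fold change ran from 7.28 to 13.94 with a library left out. Tyro3 was −0.36 on total counts, −0.69 without a filter, −2.70 in limma-voom, −0.46 with the replicate block and −5.31 in DESeq2 without ΔM replicate 1. Gas6 was 1.79 in limma-voom. Elmo1 was 0.033 without a filter, 5.13 in limma-voom, and 0.21 in DESeq2 without ΔM replicate 1. With a library left out, edgeR ranged from −4.41 to 3.24 for Tyro3, −8.11 to 12.79 for Gas6, −9.05 to 9.51 for Mfge8, −1.41 to 13.94 for Elmo1 and −3.16 to 9.67 for Dock2. The cause was not tested. The median over all genes tested was 0.78 with TMM, 1.24 with RLE and 0.13 on total counts.

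Both genotypes have libraries numbered 1 and 2, and no source used here says that a number marks a shared animal, batch or day. The deviations of same-numbered libraries correlated at 0.18 over 2 pairs, too few to settle whether the numbers pair the libraries, although both libraries numbered 1 stood apart in their range of counts. The fit with the replicate block called 0 genes and gave 0.24 for Mfge8, 2.90 for Elmo1 and −0.63 for Dock2. With 2 libraries against 3, the standard errors of the 6 genes were 4.25 or more, which limits what could be called. Where a library was left out of WT, the remaining one was taken to vary like the other genotype.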
